A study of Drosophila melanogaster with 3 samples.

Results

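Intronic peaks away from promoters were the Neu2-GFP chromatin immunoprecipitation peaks whose summit lay more than 500 bp from the transcription start site (TSS) of every protein-coding gene, inside the body of a protein-coding gene and in no annotated exon of any gene. By this rule 371 of the 1471 peaks of the authors' optimal dm6 list were intronic (25.2%, 95% exact Clopper-Pearson interval 23.02 to 27.5), beside 794 promoter peaks within 500 bp of a TSS (54.0%) and 306 peaks elsewhere (20.8%). The libraries were made from pooled male and female whole embryos of Drosophila melanogaster, collected at 2 to 4 h, of the strain Neu2-GFP, a stable transgenic line in which GFP is fused to the C-terminus of Neu2, and the fusion was precipitated with an anti-GFP antibody. The 3 biological replicates carried the same transgene and formed 1 group, so all comparisons below were made between genomic positions. Embryos were whole, so a call does not say in which cells the protein was bound, and the promoter that drives the transgene was not given in the sources used here.

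Neu2 carries zinc fingers and belongs to the ZAD proteins, a DNA-binding family of insects in which several members are known to bind promoters or chromatin domain boundaries. Introns of the fly genome hold many enhancers, short stretches of DNA that raise the transcription of a gene from a distance, and long first introns are known as a common place for them. A peak in an intron may act on its host gene, on a neighbour or on none, and these lists hold no measurement of transcription.

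Each deposited call carries the authors' own signal value, which was used to rank and describe calls within a list and has no stated scale. A window of 101 bp centred on the summit was read from the dm6 genome. The windows below, plus strand, are those of 6 of the strongest peaks described in the text, of CG34417, a strong peak whose window held none of the searched words of 6 or more bases, and of fz3 and kuz, which held the 8-base word CCACCAAA. Capitals mark every match to a searched word of 6 or more bases on either strand.
ush (chr2L:481015-481115): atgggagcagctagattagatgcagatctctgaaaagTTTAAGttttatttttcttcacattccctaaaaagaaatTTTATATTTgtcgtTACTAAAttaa
Lk6 (chr3R:11761001-11761101): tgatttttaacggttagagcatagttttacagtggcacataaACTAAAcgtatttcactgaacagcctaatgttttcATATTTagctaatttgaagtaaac
CG11050 (chr2L:6612678-6612778): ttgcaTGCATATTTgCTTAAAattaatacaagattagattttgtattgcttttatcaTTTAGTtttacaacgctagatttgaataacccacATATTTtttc
CG32772 (chrX:4910322-4910422): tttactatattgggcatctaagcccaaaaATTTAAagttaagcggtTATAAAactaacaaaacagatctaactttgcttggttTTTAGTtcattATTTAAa
ova (chr2L:10230538-10230638): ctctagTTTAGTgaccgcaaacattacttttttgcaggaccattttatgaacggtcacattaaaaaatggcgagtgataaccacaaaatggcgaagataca
Trl (chr3L:14759465-14759565): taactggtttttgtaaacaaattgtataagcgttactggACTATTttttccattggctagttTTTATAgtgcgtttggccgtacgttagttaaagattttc
CG34417 (chrX:6549818-6549918): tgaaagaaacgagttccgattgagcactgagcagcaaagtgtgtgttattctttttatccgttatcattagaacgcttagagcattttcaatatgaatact
fz3 (chrX:771581-771681): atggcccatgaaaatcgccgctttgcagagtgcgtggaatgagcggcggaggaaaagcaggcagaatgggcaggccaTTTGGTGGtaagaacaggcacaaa
kuz (chr2L:13591556-13591656): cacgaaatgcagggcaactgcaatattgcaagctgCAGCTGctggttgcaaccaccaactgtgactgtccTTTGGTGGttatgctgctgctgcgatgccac

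The strongest windows were rich in A and T, and several shared a short word. Of the 15 strongest intronic peaks matched in all 3 replicates, 6 held TATAAA and 6 held AAATAT, against 15.9% and 26.7% of all 371 intronic windows. ACTAAA stood at 5 of them, ush, Lk6, CG11050, CG32772 and ova, and ATTTAA at 4, against 14.8% and 24.5% of all intronic windows. A or T made up 62.4% to 75.2% of these 15 windows. The windows at fz3 and kuz, with 45.5% and 46.5% A or T, show that not all strong intronic summits were of this kind.

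Signal at the intronic peaks ran from 89.04 to 904, with a median of 116 and quartiles of 99.6 and 151. Promoter peaks had a median of 124 and the remaining peaks one of 114. Of the 100 strongest optimal peaks 20 were intronic and 61 lay at promoters. To compare replicates, the signal of the replicate's call within 200 bp was divided by that replicate's median over the optimal peaks, which gives a relative signal with 1 as the typical peak. The median relative signal was 0.953, 0.998 and 0.956 at intronic peaks in replicates 1, 2 and 3, against 1.04, 1.02 and 1.02 at promoter peaks. The remaining peaks had 0.938, 0.958 and 0.992. Intronic peaks were thus lower than promoter peaks in 3 of 3 replicates, by a mean difference of -0.0597 ± 0.0334 (SD, n = 3). The exact two-sided sign-flip permutation test gave p = 0.25, the smallest p that 3 replicates can give, so the design could not pass a threshold of 0.05.

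The strongest intronic peak lay in ush (u-shaped, FBgn0003963), a zinc-finger cofactor of GATA transcription factors, with a signal of 904 over the interval 2L from 480916 to 481275. Its relative signal was 7.72, 7.10 and 6.25 in the 3 replicates, a mean of 7.02 ± 0.741 (SD, n = 3). The summit was in intron 1 of 8, 4845 bp from the start of the ush transcript, but the nearest TSS was that of cbt (cabut), a zinc-finger transcription factor, at 1377 bp. All 3 values of this peak lay above those of every other intronic peak named here.

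Lk6 (FBgn0017581), a kinase that phosphorylates the translation factor eIF4E, held the second intronic peak, of signal 583, at 3R from 11760906 to 11761177. Its relative signal was 5.23, 3.91 and 4.62, a mean of 4.59 ± 0.661 (SD, n = 3), and its summit lay in intron 1 of 5 at 972 bp from an Lk6 TSS. CG11050 followed (signal 480), with relative signals of 3.77, 3.90 and 3.53, a mean of 3.73 ± 0.186 (SD, n = 3). The CG11050 summit lay in an intron of only 140 bp, 53 bp from an exon, so the call reached into exon sequence on both sides of it. These 3 were the only intronic peaks among the 20 of highest signal.

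The other 12 of the 15 strongest had signals from 285 to 423. Adf1, a DNA-binding transcription factor, had a relative signal of 4.70, 2.71 and 2.43, so replicate 1 stood above the others, and its own promoter also carried a peak. Tlk, the Tousled-like kinase of chromatin assembly, had 2.91, 3.48 and 2.43 in a 60007-bp intron. Both lay in the upper part of all 3 lists, while Lrch, a leucine-rich-repeat protein, did not keep 1 level: its relative signal was 1.10, 4.07 and 3.01 (mean 2.73 ± 1.504, SD, n = 3), low in replicate 1 and high in the other replicates. A second summit of the Lrch intron lay close by, as set out below. Trl, which encodes the GAGA factor, had 2.84, 2.02 and 2.16 and also carried a promoter peak. zfh1, a zinc-finger homeodomain repressor, had 2.55, 2.37 and 1.67 in intron 3 of 4. The least variable of the set was CG34417 with 2.26, 2.13 and 2.29, a mean of 2.22 ± 0.0836 (SD, n = 3). CG9663, CG32772, babos, the potassium channel gene Elk, ova and CG9837 made up the rest, with mean relative signals from 2.29 to 2.95.

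**Figure D1:**
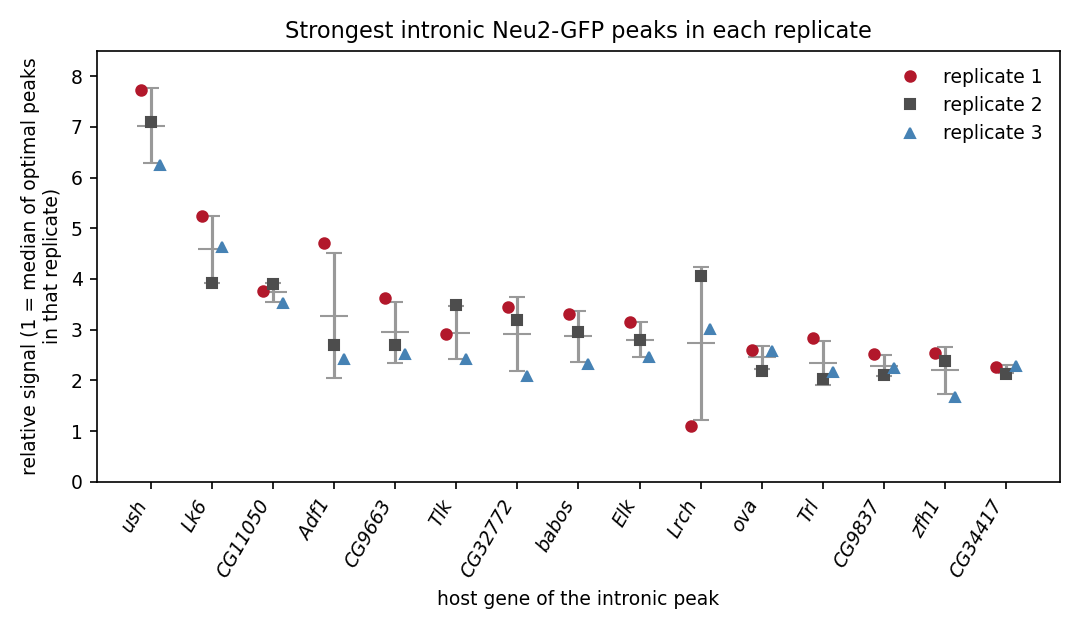
Relative signal (y axis, 1 is the median of the optimal peaks in that replicate) of the 15 strongest intronic peaks matched in all 3 replicates, by host gene. Circles, squares and triangles are replicates 1, 2 and 3, the grey line and bars are mean and SD, and the ush peak with a mean of 7.02 stands above the rest while Lrch has the widest spread.

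How far the replicates shared the intronic peaks was asked of each replicate's 1471 strongest calls, a number equal to the size of the optimal list. A top call within 200 bp was found for 281, 262 and 234 of the 371 intronic peaks in replicates 1, 2 and 3. In all 3 replicates 147 were matched (39.6%, 95% interval 34.6 to 44.8), against 376 of 794 promoter peaks (47.4%, 43.8 to 50.9) and 43.4% of all optimal peaks. Matches in 2 replicates were found for another 121 intronic peaks, in 1 for 94 and in 0 for 9. Among the 9 the strongest was in cpo (couch potato), an RNA-binding protein, with a signal of 100.1 and relative signals of 0.718, 0.744 and 0.638. In the whole relaxed lists, which also hold background calls, 352 intronic peaks (94.9%) had a call in each replicate.

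Support followed signal. In the top quartile group of the optimal list by signal 96.6% of intronic and 97.2% of promoter peaks were matched in all 3 replicates, and in the next group 56.7% of intronic and 60.8% of promoter peaks. In the lower groups the shares were 10.6% of intronic against 16.0% of promoter peaks, and 1.11% against 5.21%. The intervals of the 2 classes overlapped in each group. The optimal list derives from the libraries it is compared with here, so these shares are a description and were not tested.

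**Figure D2:**
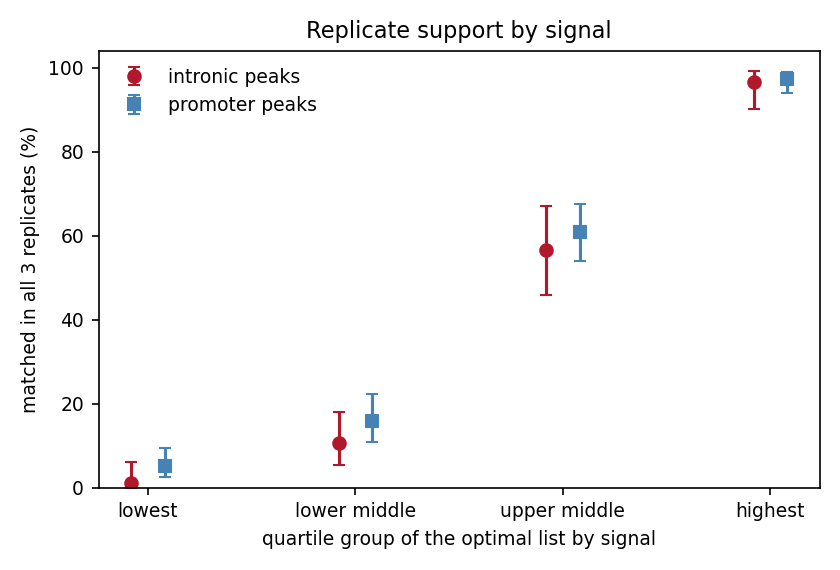
Share of peaks with a match in each of the 3 replicates (y axis, %) by quartile group of the optimal list by signal (x axis), for intronic (circles) and promoter peaks (squares), with 95% exact intervals that cover counting error only. Both classes climb with signal, to 96.6% and 97.2% in the highest group.

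The sequence that the rule could keep, here called eligible intron sequence, made up 48.5 Mb or 36.2% of the 134 Mb of the 6 main arms. Relaxed calls of the pooled replicates more than 1000 bp from every optimal peak served as background, and 8557 of 27565 such calls (31.0%) were intronic by the same rule. Intronic positions thus held a smaller share of the optimal peaks (25.2%) than of the background calls or of the sequence. The same held within each replicate: among its 1471 top calls 25.1%, 24.6% and 23.1% were intronic, against 33.3%, 30.9% and 32.8% of its lower calls more than 1000 bp away. The mean difference was -8.09 ± 1.71 percentage points (SD, n = 3), lower in 3 of 3 replicates (exact permutation p = 0.25, the smallest possible). Replicate lists are not independent of the optimal list, which was derived from them.

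Even beyond 500 bp the intronic peaks lay nearer to TSSs than other intron positions. Their median distance to a protein-coding TSS was 2974 bp (quartiles 1154 and 7213 bp), against 4525 bp for background calls and 6221 bp for eligible sequence. Density was 20.1 peaks per Mb at 501 to 1000 bp, 13.1 at 1001 to 2000 bp, 7.81 at 2001 to 5000 bp, 6.52 at 5001 to 10000 bp and 3.54 beyond. Background calls went the same way over a smaller range, from 257 per Mb in the nearest bin to 142 in the farthest. In the top calls of the replicates 43.1% ± 3.56 of intronic summits lay within 2000 bp of a TSS, against 26.1% ± 2.90 of lower calls (SD, n = 3), higher in 3 of 3 replicates (exact permutation p = 0.25). Median signal was 129 in the nearest bin and between 111 and 116 in the others. The nearest TSS belonged to the host gene for 298 intronic peaks (80.3%). A TSS of a noncoding gene lay within 500 bp of 9 of them, such as that of lncRNA:CR44331 at 71 bp from the summit in puc, a phosphatase of the JNK pathway, and that of snRNA:U4:38AB at 171 bp from a summit in sick.

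**Figure D3:**
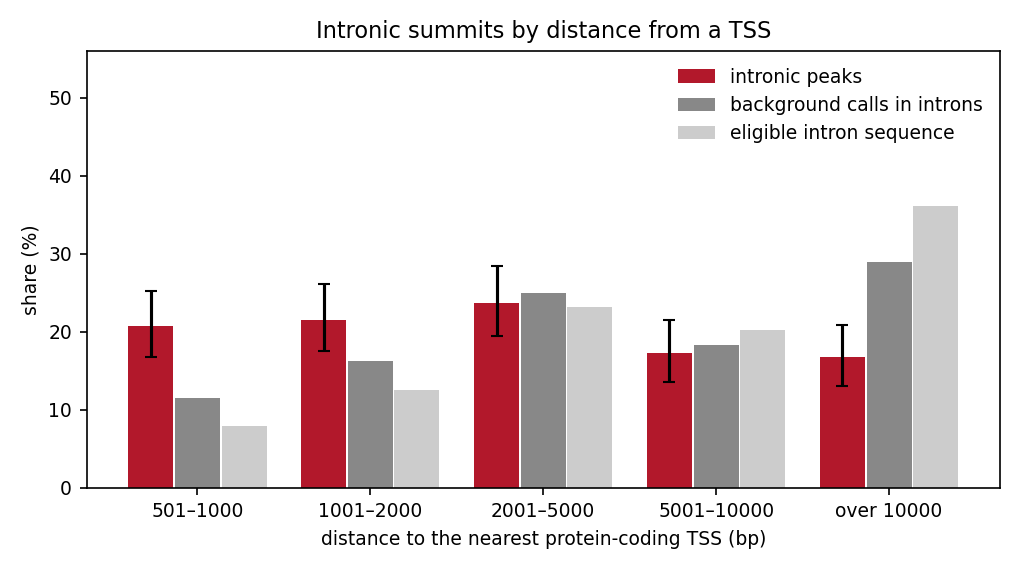
Share (y axis, %) of 371 intronic peaks, 8557 intronic background calls and 48.5 Mb of eligible intron sequence in bins of distance to the nearest protein-coding TSS (x axis, bp). Bars on the intronic peaks are 95% exact intervals, and the peaks exceed both others in the bins below 2001 bp.

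At the edge of the rule, the 2 intronic peaks nearest to a TSS were those of CG31612 at 523 bp (signal 158) and CG31523 at 526 bp (signal 92.4). Just inside, and so counted as promoter peaks, lay the intron summits of CAP at 482 bp (signal 120.5) and of ph-p, a Polycomb-group gene, at 469 bp (signal 622). In all, 181 optimal summits in introns lay within 500 bp of a TSS. At the other end, 2 peaks in Myo81F, a myosin gene whose 1965857-bp body makes it the longest host, lay 1095915 and 851575 bp from any protein-coding TSS. Their relative signals were 0.819, 0.863 and 0.857 for the first, and 1.09, 0.640 and 0.979 for the second. A peak in DIP-lambda, which encodes a Dpr-interacting cell-surface protein, came next at 172668 bp with 1.36, 0.742 and 0.938.

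Intron order was taken from the longest-spanning transcript that covers the summit. First introns held 171 of the 371 peaks (46.1%, 95% interval 40.9 to 51.3), against 36.2% of background calls and 29.3% of the sequence. Second introns held 116 (31.3%), intron 3 held 32, intron 4 held 12, and introns of number 5 or more held 40 (10.8%, against 18.3% of background calls and 22.8% of the sequence). Density per Mb was 12.02, 8.75, 5.07, 3.30 and 3.61 in this order. First introns had 2.06 times the density of later introns (95% interval 1.67 to 2.54, from the exact interval of the first-intron share), and for background calls this ratio was 1.37. The median signal differed little with order, from 109 to 120. In the replicates the ratio was 1.71, 2.26 and 1.93 for top calls and 1.13, 1.46 and 1.32 for lower calls, higher for top calls in 3 of 3 replicates (mean difference 0.660 ± 0.114, SD, n = 3, exact permutation p = 0.25). First introns are also near TSSs, and beyond 2000 bp from any TSS the ratio for optimal peaks was 1.504. The highest intron number was 25 of 27, in the sodium channel gene NaCP60E.

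**Figure D4:**
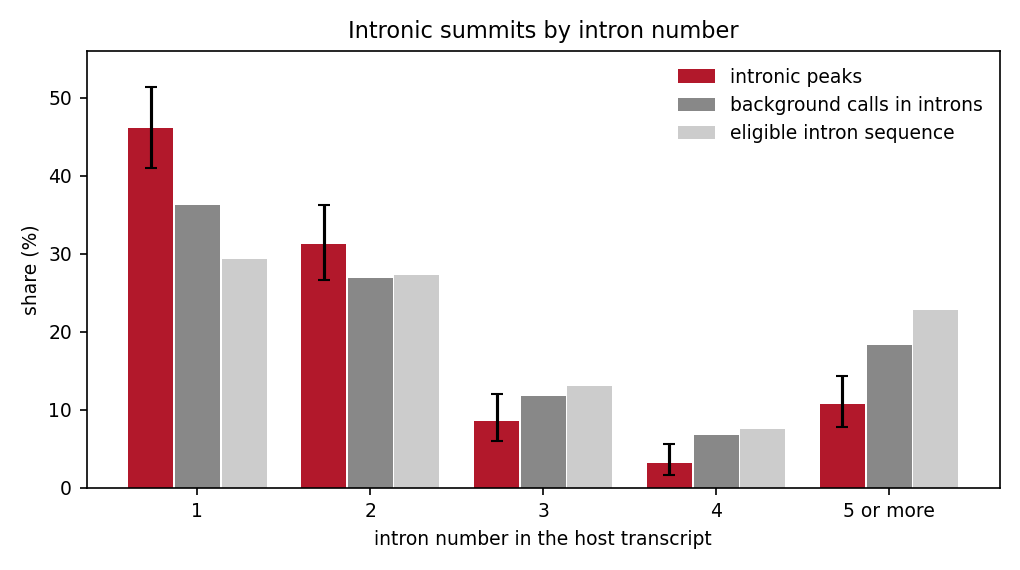
Share (y axis, %) of intronic peaks, intronic background calls and eligible intron sequence by intron number in the host transcript (x axis). Bars on the intronic peaks are 95% exact intervals, and first introns hold 46.1% of peaks against 36.2% of background calls and 29.3% of sequence.

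Introns with a peak were long, with a median of 11838 bp, close to the 12630 bp of background calls. Host genes were long too. The median host length was 29590 bp (quartiles 14054 and 66017 bp), against 36848 bp for hosts of background calls and 2166 bp for all protein-coding genes. The 2789 longest genes, above 6456 bp, hosted 338 of the 371 peaks (91.1%), and 92.0% of the background calls. Per Mb of eligible sequence the count was 7.12 in these genes and 12.8 in the 2789 genes next to them in length. Background calls went the same way, with 166 and 233 per Mb. The replicates gave median host lengths of 31694, 27460 and 26967 bp for top calls, against 42507, 33556 and 37131 bp for lower calls, shorter in 3 of 3 replicates (exact permutation p = 0.25). The shortest host was CG9921 with 2320 bp, whose peak of signal 219 had relative signals of 1.71, 1.61 and 1.69.

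In 305 of the 9174 protein-coding genes with eligible intron sequence (3.32%) an intronic peak was found, counting both genes where 2 overlap, as at 18 peaks. There were 243 genes with 1 peak, 47 with 2, 9 with 3 and 5 with 4, and Antp had 5. In all, 48 introns held 2 or more and together 105 of the 371. Another optimal peak lay within 5000 bp of 25.3% of intronic peaks, against 28.8% of promoter peaks. In 8 cases the summits of 2 members lay within 440 bp of each other and could share a replicate call. Such pairs stood in Lrch, trx, Eip75B and sick among others. A host promoter, within 500 bp of a TSS of the host itself, also carried a peak for 66 intronic peaks (17.8%, 95% interval 14.03 to 22.1). With a distance limit of 250 bp for intronic peaks the share was 28.0%. A peak between 250 and 500 bp from a host TSS can then count as its own host's promoter peak. With limits of 1000 and 2000 bp the share was 17.0% and 15.9%. At 500 bp a host promoter peak was found for 12.2% of background calls. These lie more than 1000 bp from every optimal peak, so unlike intronic peaks they cannot sit close to a promoter peak. Of all protein-coding genes 7.36% had a promoter peak, and of the 2789 longest, which hosted most intronic peaks, 10.6% had one. Median signal was 122 with a promoter peak in the host and 114.9 without. Density ran from 7.62 to 7.92 intronic peaks per Mb on 2L, 2R, 3L, 3R and X, and chromosome 4 held 1 intronic peak.

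Antp (Antennapedia), the Hox gene of the thorax, was the host with most intronic peaks. Of its 5 peaks 4 also lay in CG46458, which overlaps it. The strongest (signal 179) had relative signals of 1.19, 1.93 and 1.03. The others had signals from 94.2 to 109. Among the 8 Hox genes, which give segments their identity, 6 held 12 intronic peaks between them: lab 2, pb 1, Scr 1, Antp 5, Ubx 2 and abd-A 1. Dfd and Abd-B held none. Of all genes with eligible introns 3.32% held a peak, but these had a median of only 460.5 bp of eligible intron sequence. The 6 Hox genes with a peak had from 13364 bp in lab to 92884 bp in Antp, so the 2 shares are not alike. The peak in lab (labial) of signal 219 had relative signals of 1.40, 2.46 and 1.29, and that in Ubx (Ultrabithorax) of signal 183, in intron 3 of 3, had 1.05, 2.12 and 1.35. Replicate 2 was the highest at 8 of the 10 Hox peaks with a call in each replicate, against 125 of 352 intronic peaks (35.5%), a pattern singled out after its values were seen.

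Besides CG46458, sick, Hr4, SKIP and Eip75B had 4 intronic peaks each. In sick the strongest (signal 222) had relative signals of 1.65, 2.12 and 1.40, and a second summit 200 bp away was matched to the same call in replicate 1. SKIP, a potassium channel-interacting protein, had signals from 114 to 147, and the strongest of these peaks had 0.909, 0.958 and 1.52. Hr4 and Eip75B are described with the ecdysone genes below.

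Among 47 early patterning transcription factors 34 had eligible introns, and 8 of these (23.5%, 95% interval 10.7 to 41.2) held an intronic peak, against 3.32% of all genes. Beside ush and the 6 Hox genes this was oc (orthodenticle), the head gap gene. Per Mb of eligible sequence the list had 28.3 peaks (exact Poisson interval 15.4 to 47.4) against 7.34 for all genes. Of its 14 peaks 12 lay in Hox genes, 5 of them in Antp, and the interval treats peaks of the same gene as independent. The share of genes alone cannot be compared with all genes, since the listed genes have a median of 5101 bp of eligible introns and all genes with any have a median of 460.5 bp. For this reason the density is given for each list. Density itself fell with distance from a TSS and differed with gene length, so it does not fully remove this difference between lists. Lists were chosen with results of these data known, so counts and densities are a description.

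Genes of EGFR and Ras-MAPK signalling, the receptor tyrosine kinase pathway that patterns the ectoderm, held intronic peaks in 8 of 19 cases (42.1%) at 38.9 per Mb (20.1 to 67.9). Among the ligands and their modifiers these were vn (a neuregulin-like ligand), aos (a secreted inhibitor) and S (Star, needed for ligand transport). Inside the cell they were the adaptor drk and the kinases Raf and Lk6, and in the nucleus the ETS factors aop, a repressor, and pnt, an activator. Raf had 3 peaks in its second intron, the strongest of signal 191 with 1.54, 1.32 and 1.52 in the replicates. aop had a signal of 181 and 1.56, 1.39 and 0.944. The pnt peak was weak, with a signal of 91.8, and replicate 3 had no call there. Egfr itself held none.

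The ecdysone response, the steroid hormone cascade that runs through nuclear receptors, had intronic peaks in 5 of 15 genes (33.3%) at 23.6 per Mb (12.2 to 41.2). The receptor gene EcR had 1 peak of signal 106, with relative signals of 0.896, 0.949 and 0.698. Of the nuclear receptors downstream, Hr4 and Eip75B had 4 peaks each, and Hr3 was the other. The strongest Hr4 peak had a signal of 220.4 and 1.80, 1.71 and 1.65 in the replicates. At Eip75B all 4 peaks had mean relative signals from 0.956 to 0.993, the strongest with 0.964, 1.16 and 0.848. Of these 4 peaks 2 lay within 440 bp of each other and took the same call in each replicate. Their relative signals are thus 1 measurement, while the count and density of the list hold both. ImpL2, a secreted insulin-binding protein, had the strongest peak of the list, of signal 244, with 1.98, 2.08 and 1.61.

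Chromatin and boundary protein genes had peaks in 6 of 30 cases (20%), and because their introns are short this came to 91.3 per Mb (41.8 to 173). Trl, described above, led, followed by Kdm4B, a histone demethylase, with 1.23, 1.23 and 0.961, and trx (trithorax), with 0.936, 1.57 and 1.10. The others were ph-p and Psc of the Polycomb group and the cohesin loader Nipped-B. All 9 peaks rest on 0.0985 Mb of eligible sequence, which limits the precision.

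BMP signalling had 4 of 12 genes with an intronic peak at 25.8 per Mb (8.36 to 60.1). cv-2, a BMP-binding protein, led with a signal of 214 and 1.4998, 1.79 and 1.75, and shn (a zinc-finger cofactor), Dad (an inhibitory Smad) and Mad (the receptor-activated Smad) followed. The Mad peak was matched in none of the top lists. Notch signalling had 3 of 13 genes, the protease kuz, the receptor N and the coactivator mam, at 11.7 per Mb (2.42 to 34.3). At kuz the relative signal was 2.14, 1.09 and 1.58, and at N 1.28, 1.16 and 1.02. Wnt signalling had the receptors fz3 (2.25, 1.30 and 2.11) and fz (1.47, 1.20 and 0.739) among 13 genes, at 9.37 per Mb (1.93 to 27.4). The Notch and Wnt intervals included the 7.34 per Mb of all genes.

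Adhesion and axon guidance genes held intronic peaks in 5 of 56 cases at 3.23 per Mb (1.40 to 6.37), with an interval below the density of all genes. Beyond 2000 bp from any TSS the list had 3.55 per Mb, against 5.35 for all genes. Among peaks matched in all 3 replicates it had 1.62 against 2.91. No interval was computed for these 2 settings, so a lower density there was not established. Among the 5 genes mew, an integrin subunit, had 1.99, 1.98 and 1.63, and kirre, an adhesion protein of muscle founder cells, 1.34, 1.71 and 1.07. Ion channel and synapse genes held them in 6 of 42 cases at 4.41 per Mb (1.77 to 9.08), an interval that included the density of all genes. Of these nAChRalpha4, a nicotinic receptor subunit, had 2.49, 1.95 and 2.01, and for, a cGMP-dependent kinase, had 1.91, 1.55 and 1.46. The others were KCNQ, para, dnc and bru2. dnc encodes a phosphodiesterase and bru2 an RNA-binding protein, so this list was broader than its name. Of 16 muscle genes with eligible introns 0 held a peak, which on 0.205 Mb allows up to 17.95 per Mb. Of 10 Hedgehog genes 0 held one, which allows up to 28.1 per Mb. The lists without a peak were thus too short in intron sequence to be told from all genes. Of 14 transcription factors of stress and growth, of several DNA-binding families, sr held 1. Of 50 ribosomal protein genes with eligible introns 0 held one, on 0.0133 Mb of such sequence, while 37 of all 92 carried a promoter peak.

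The next question was which sequence lay under intronic summits. In all, 26 words were searched on both strands in the 101-bp windows, and some had been picked from earlier results of these data. Those of 7 or more bases were TATCGATA, AGGTGGCG, GGTCACAC, CACACACA, CATCATCA, CTACTAAA, CCACTAAA, CTACCAAA and CCACCAAA, and the word CAGGTAG. The shorter ones are given below with their share of summits. Several overlap, as TACTAA and ACTAAA do, so a window may count for more than 1.

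TATCGATA, which the factor Dref binds as the DRE, stood at 2 of 371 intronic summits (0.539%, 95% interval 0.0654 to 1.93), against 46 of 794 promoter summits (5.79%). Of all 101-bp windows tiled over eligible introns 0.191% held it. Its shorter core TATCGA stood at 4.58% of intronic summits, against 16.0% of promoter summits and 2.29% of intronic flanks. In the top calls of the replicates the core was at 4.88%, 4.14% and 4.12% of intronic summits, against 15.5%, 12.7% and 14.97% of promoter summits. The difference was -10.01 ± 1.24 percentage points (SD, n = 3), lower at introns in 3 of 3 replicates (exact permutation p = 0.25). The core-promoter word GGTCACAC stood at 0 intronic summits (upper 95% bound 0.989%) and at 2.02% of promoter summits. The CTCF word AGGTGGCG stood at 1 intronic summit and the Zelda word CAGGTAG at 2 (0.539%, against 0.809% of flanks).

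Several AT-rich words were more frequent at intronic summits than in their flanks, the windows centred 300 bp to either side. ATTTAA stood at 24.5% of summits (95% interval 20.2 to 29.2), against 12.1% of flanks, and CTTAAA at 14.6% against 5.26%. Promoter summits held these about as often, with 22.9% and 11.5%. Tiled intron windows held them at 17.4% and 9.55%, above the flanks. ACTAAA stood at 14.8% of intronic summits (11.4 to 18.9), against 7.14% of flanks, 8.69% of promoter summits, 7.43% of tiled intron windows and 7.32% of background calls. In the top calls of the replicates ACTAAA was at 13.3%, 10.8% and 11.2% of intronic summits, against 8.70%, 7.74% and 8.25% of promoter summits, higher in 3 of 3 replicates (mean difference 3.51 ± 0.924 percentage points, SD, n = 3, exact permutation p = 0.25). The related words AATAGT (11.1% against 4.31% of flanks) and TACTAA (8.09% against 3.64%) were also more frequent at summits. Tiled intron windows held them at 5.67% and 3.99%. CTACTAAA stood at 6 summits (1.62%) and at 0 of 742 flanks.

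When all 6-base words were ranked by summits minus flanks on 2L and 3R, the best 8 were all rich in A and T. On the ranked arms they were TTAAAA at 23.5% of summits, ACTAAA at 18.5%, ATTTTA at 24.1%, CAAATA at 18.5%, TGTAAA at 16.05%, AAAATT at 25.3%, AAAAAT at 25.9% and TAACAA at 16.7%. On the arms not used for ranking (2R, 3L, 4 and X) all 8 stood at more summits than flanks. There ACTAAA stood at 25 of 209 intronic summits (11.96%), against 7.66% of flanks and 7.94% of promoter summits. The gap to flanks was wider for TTAAAA (22.97% against 15.07%), AAAAAT (29.67% against 23.21%), CAAATA (18.18% against 12.20%) and AAAATT (22.01% against 16.03%). TGTAAA kept little of its excess there, with 10.05% against 9.33% of flanks. Because ACTAAA was also among the searched words, some of them picked from earlier results of these data, these arms may not be an independent check of it. Of all tiled intron windows 25.4% held AAAAAT, close to its share on the ranked arms, 19.5% AAAATT, 18.6% TTAAAA and 12.4% CAAATA. The flanks given here for these words were below those shares.

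Of the remaining words 8 were less frequent at intronic summits than in their flanks in the 101-bp windows. GAGAG of the GAGA factor stood at 12.4% of summits against 17.9% of flanks, the E-box words CAGCTG at 2.96% against 5.53% and CATATG at 4.04% against 4.45%, CACACACA at 1.35% against 3.23% and CATCATCA at 0.539% against 0.943%. GCCAT of Pho stood at 14.3% against 16.6%, the nuclear receptor site AGGTCA at 1.89% against 2.29% and the Grainyhead word AACCGG at 2.43% against 2.83%. The sign turned for 3 of these 8 in at least 1 other window or peak set. For AGGTCA summits minus flanks came to 0.674 percentage points in windows of 25 bp to either side, 0.404 in windows of 100 bp to either side and 0.680 at peaks matched in all 3 replicates. GCCAT came to 5.10 at those matched peaks and CATATG to 0.2695 in the wider windows, and CAGGTAG, also less frequent at summits, to 0.340 at the matched peaks. GAGAG stayed lower at summits than in flanks, with -0.809 in the wider windows and -10.5 at matched peaks. The other words were more frequent at summits or level. TATAAA stood at 15.9% against 9.84%, AAATAT at 26.7% against 16.3%, ATACTA at 5.39% against 2.70%, and TGCATA, part of the word of Su(Hw), at 11.1% against 6.87%. Among the 8-base variants CCACTAAA stood at 0.809% against 0.809%, CTACCAAA at 1.62% against 0.404% and CCACCAAA at 1.89% against 0.2695%. In windows of 25 bp to either side the excess over flanks was smaller for TGCATA, at 0.404 against 4.18 percentage points in 101-bp windows. It was also smaller there for ATTTAA (6.33 against 12.4), CTTAAA (4.72 against 9.30), AAATAT (5.12 against 10.4), TATAAA (2.43 against 6.06) and ACTAAA (4.04 against 7.68). Narrower windows hold fewer positions, so the excess can fall with width alone. These drops thus do not show where in the window the words lay. In windows of 100 bp to either side the excess was larger for ATTTAA (15.1), AAATAT (13.2), ACTAAA (8.76) and TATAAA (6.33). For CTTAAA (6.33) and TGCATA (3.91) it was smaller than in 101-bp windows.

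Base composition moved with these words. Intronic summit windows held 63.0% A or T, against 57.1% of their flanks, 60.3% of promoter summits, 59.9% of tiled intron windows and 57.8% of background calls. Along the profile in steps of 25 bp the share at intronic summits was 64.1% at the centre, 57.1% at 100 bp before and 57.9% at 100 bp after it. Top calls of the replicates had 62.6%, 60.8% and 61.1% A or T at intronic summits, against 56.9%, 56.9% and 58.4% in their flanks, higher in 3 of 3 replicates (mean difference 4.11 ± 1.51 percentage points, SD, n = 3, exact permutation p = 0.25). The part of base composition in the word counts was not tested.

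**Figure D5:**
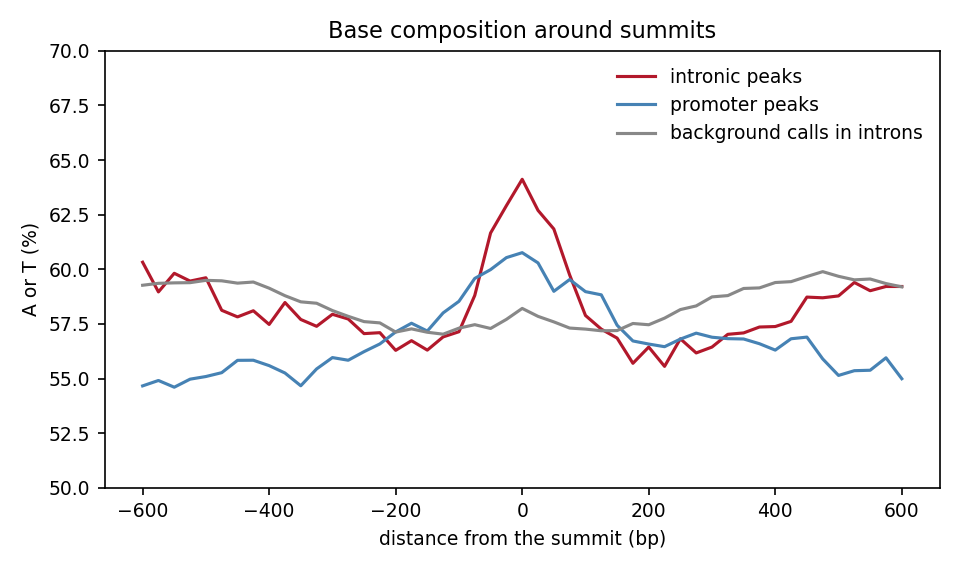
Mean A or T content (y axis, %, from 50 to 70) in 25-bp windows by distance from the summit (x axis, bp) for intronic peaks, promoter peaks and intronic background calls. The intronic line peaks at 64.1% at the summit, above 60.8% at promoter summits and 58.2% at background calls.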

How the data were processed

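Chromatin immunoprecipitation libraries of 3 biological replicates of 2 to 4 h Neu2-GFP embryos were analysed as peak lists on dm6. Per the labels, chromatin was sonicated to 200 to 800 bp. Per the text deposited with the lists, each replicate and the pooled replicates had a relaxed list of peaks and background called against a control, and the optimal list held peaks past an irreproducible discovery rate threshold. For the aligner, the caller, their versions and the threshold, details are not given in the sources used here. The signal of each call, its −log10 q-value (at a ceiling of 3.39 for 84.6% of intronic peaks, described only) and the summit offset are the authors' deposited values. The lists hold no read counts, so depth is unknown, and intervals cover counting error of peaks or genes only. The dm3 lists and the control were not used here.

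Summits were placed on the Ensembl release 115 annotation (BDGP 6.54; 13945 protein-coding genes on the 6 main arms) with Python 3.11.15, numpy 2.4.6 and scipy 1.17.1. The intron rule, densities, word counts and sign-flip test were tested on simulated positions. Words were counted in 101-bp windows and, as alternatives, within 25 and 100 bp of the summit and at peaks matched in all 3 replicates. Shares have exact Clopper-Pearson and densities of lists exact Poisson intervals. The only test over samples was the exact sign-flip permutation over 3 replicates. Of the list symbols 9 were matched by synonym or spelling. Genes were named by rule: the 15 strongest intronic peaks matched in all replicates, hosts with 4 or more peaks, up to 3 hosts of highest signal per list, the longest and shortest host, the 3 farthest peaks, 2 peaks on either side of 500 bp and the strongest unmatched peak. Further list members were named to complete counts, and values given for those outside the rule were chosen after they were seen. Members, lists and words were chosen with earlier results of these data known. A gene list and a summit window are not reported here.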

Additional observations from a re-analysis of the deposited data

How the results depend on the processing

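Distance limits of 250, 1000 and 2000 bp, TSSs of every gene type, whole intervals outside exons, stronger or better matched peaks, other match distances, each replicate left out, list lengths, transcript choices and word windows were tried. At 2000 bp 214 intronic peaks in 176 genes remained, with 32.7% in first introns, a median host length of 48404 bp and a density ratio of first to later introns of 1.504. At 1000 bp the first-intron share was 40.5% and the host length 35148 bp. At 250 bp 28.0% of intronic peaks had a promoter peak in the host, which at that limit can be the intronic peak itself. Taking the lowest intron number over transcripts gave 67.4% in first introns and a ratio of 2.75, against 1.38 for background calls. The 735 strongest optimal peaks held 177 intronic peaks in 166 genes, of which 76.3% were matched in all replicates. The peaks matched in all 3 were 147 in 141 genes, with a host length of 24450 bp. Without 1 replicate, peaks matched in both others were 176 to 198 in 160 to 181 genes (47.4% to 53.4%). With 1000 top calls 29.4% were matched in all 3, and with 3000 62.5%. The relative signal of intronic minus promoter peaks stayed below 0 in all 14 alternatives, from -0.0774 to -0.0213. Among peaks matched in all 3 replicates, early patterning genes with a peak numbered 4 of 34 (11.8%, exact interval 3.30 to 27.5). EGFR and Ras-MAPK genes numbered 4 of 19 (21.1%, 6.05 to 45.6) and ecdysone genes 3 of 15 (20%, 4.33 to 48.1). Of all genes 141 of 9174 (1.54%) had such a peak. Per Mb the lists had 8.07, 22.7 and 7.87 such peaks, against 2.91 for all genes. The shares depend on intron length, and these densities have no interval, so they are a description. Ignoring transposon exons, added after seeing the data, gave 374 peaks, and keeping 1 of each close pair, also added then, left out 8. No paired analysis between groups of samples was possible because the 3 libraries form 1 group, and the sign-flip tests pair classes of calls within a replicate. Unknown depth and 3 replicates, whose smallest exact permutation p is 0.25, limit every comparison.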
